A study of Aedes aegypti with 48 samples.

Results

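The genes described here are the 2 ferritin subunits of *Aedes aegypti*, the heavy chain AAEL007385 and the light chain AAEL007383, together with transferrin, AAEL015458. They were chosen by identifier, so that they are 3 of the 19804 gene identifiers in the deposited tables. RNA came from whole bodies of pools of 10 females of the Liverpool strain, 5 days after emergence, kept in cycles of 12 h of light and 12 h of dark. The 8 groups are a line homozygous for a knockout of the clock gene *Cycle* (*Cyc* KO) and the wild type (WT), each collected at 1, 5, 9 and 13 h of zeitgeber time (ZT, hours after lights on), with 6 biological replicates per group. The labels name no treatment for either genotype. Each genotype is a single line, so that an effect of the knockout and a difference between lines cannot be told apart.

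Insect ferritin is a shell of heavy and light chains that stores iron and is largely secreted. The heavy chain carries the ferroxidase centre that oxidises iron for storage, and the light chain, as known for vertebrates, helps to form the iron core. Transferrin is a secreted protein that binds iron in the hemolymph and, as shown in *Drosophila*, carries it between tissues. In mosquitoes transferrin is also known as a gene that responds to infection, and iron handling as a whole is closely tied to the blood meal.

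All 3 genes passed the filter on low counts in every comparison. Between 10670669 and 33232780 counts fell on genes in a library (median 26210624). The library labelled KO ZT13 replicate 1 held the same count as the library labelled WT ZT9 replicate 2 for 19804 of 19804 genes, and was left out, so that 47 libraries were used, 24 of WT and 23 of KO. Which of its labels belongs to that library was not tested. *Cyc* itself, AAEL002049, was lower in KO by a log2 fold change of -0.92 at ZT1, -1.04 at ZT5 and -0.37 at ZT13. At ZT9 its log2 fold change was -0.11, with an adjusted p of 0.281 by edgeR's quasi-likelihood test, where the WT level was the lowest of its 4 times. Levels are given below as CPM, the counts of a gene relative to those of its library, scaled with edgeR's TMM factors and not corrected for gene length. Each library was read deeply enough for these genes, with at least 9230 counts on the heavy chain, 5099 on the light chain and 1624 on transferrin.

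Both ferritin subunits were higher in *Cyc* KO than in WT at all 4 time points, by about the same amount at each. Over the day the heavy chain was 1.20-fold higher and the light chain 1.25-fold higher. Both differences were smaller when libraries were scaled by their total count on genes alone. Transferrin was 1.75-fold higher over the day, with much larger differences between libraries of the same group. Its increase passed the test at ZT1 and ZT13, and not at ZT5 or ZT9. Calls in this direction, at an adjusted p below 0.05, were common among all genes, since the share of genes called higher in KO was 24.5% (ZT1), 15.5% (ZT5), 16.3% (ZT9) and 18.6% (ZT13), and 6.76% were called higher at all 4 times. In a whole body, more cells of a type and more RNA per cell cannot be told apart.

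**Figure D1:**
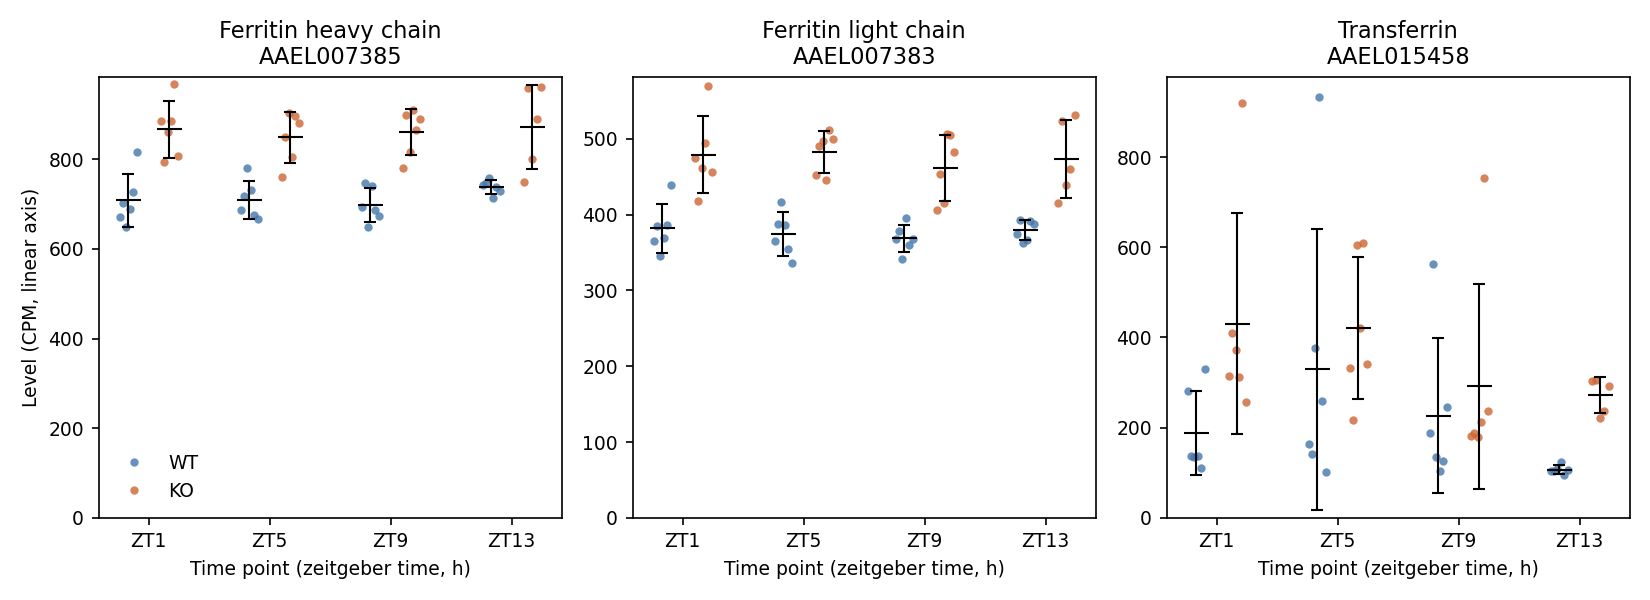
Level in CPM (vertical axis, from 0) of the ferritin heavy chain, the ferritin light chain and transferrin in each of 47 libraries, by time point (horizontal axis) and genotype; points are libraries, and the black bars are the mean and SD of a group. The KO points of both ferritin chains lie mostly above the WT points at each time, while transferrin has single libraries between 562 and 932 CPM in 4 of the groups.

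The heavy chain was measured at ZT1 between 649 and 817 CPM in WT (median 695) and between 794 and 968 CPM in KO (median 873). At ZT5 the WT libraries lay between 667 and 780 CPM (median 702) and the KO libraries between 760 and 904 CPM (median 865). The groups overlapped at both times, with 4 of 6 KO libraries above the highest WT library at ZT1 and 5 of 6 at ZT5, where 11.3% and 6.78% of all genes had every KO library above every WT library. At ZT9 WT ran from 650 to 746 CPM (median 690) and KO from 781 to 910 CPM (median 878). The 6 KO libraries of ZT9 were all above the 6 WT libraries, as was the case for 6.53% of all genes tested at that time. At ZT13 WT ran from 713 to 758 CPM (median 741), and the 5 KO libraries held 750, 801, 890, 958 and 961 CPM. Only the KO library at 750 CPM, replicate 2, reached into the WT range there.

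The log2 fold change of the heavy chain was 0.28 at ZT1 (SE 0.06, n = 6 and 6), with an adjusted p of 0.00281 by the quasi-likelihood test in edgeR, adjusted after Benjamini and Hochberg over all genes tested. It was 0.24 at ZT5 (SE 0.06, edgeR adjusted p = 0.00512), 0.30 at ZT9 (SE 0.06, edgeR adjusted p = 0.00155) and 0.22 at ZT13 (SE 0.06, n = 5 and 6, edgeR adjusted p = 0.0107). The heavy chain was thus called higher in KO at 4 of 4 times, like 6.76% of all genes. In size it had a moderate place, since 22.7% of genes had a larger log2 fold change at ZT1 and 15.5% at ZT9.

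The light chain also stood higher in KO at each time. At ZT1 it ran from 346 to 439 CPM in WT (median 377) and from 418 to 570 CPM in KO (median 469), and 5 of 6 KO libraries were above the highest WT library. At ZT5 it ran from 336 to 417 CPM in WT (median 376) and from 445 to 511 CPM in KO (median 493). At ZT9 the WT libraries lay between 342 and 395 CPM (median 368) and the KO libraries between 406 and 506 CPM (median 468). The genotypes did not overlap at ZT5 or ZT9, which held for 6.78% of all genes tested at ZT5. At ZT13 WT lay between 362 and 393 CPM (median 381), and the KO libraries held 415, 439, 460, 524 and 531 CPM. These groups did not overlap either, as for 10.5% of genes at ZT13.

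The log2 fold change of the light chain was 0.32 at ZT1 (SE 0.07, edgeR adjusted p = 0.00277), 0.35 at ZT5 (SE 0.06, edgeR adjusted p = 0.000645), 0.32 at ZT9 (SE 0.06, edgeR adjusted p = 0.00267) and 0.30 at ZT13 (SE 0.06, edgeR adjusted p = 0.00213). Over the 4 times together the value was 0.33 (SE 0.03, edgeR adjusted p = 1.7e-11), beside 0.26 (SE 0.03, edgeR adjusted p = 1.74e-10) for the heavy chain. Both were higher in KO in a comparison that called 34.5% of genes higher. The lowest of 23 KO libraries held 750 CPM of the heavy chain and the highest of 24 WT libraries 817 CPM. For the light chain the corresponding levels were 406 and 439 CPM. All 23 KO libraries were above the WT median of 716 CPM for the heavy chain and of 371 CPM for the light chain. The share of all genes for which this holds was not counted, so that nothing particular to ferritin is read from it.

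The size of the ferritin difference depended on the scaling at every time, and at ZT1 so did the call. Without TMM factors, with libraries scaled by their total count on genes alone, the median log2 fold change of all genes at ZT1 moved from 0.02 to -0.16. The heavy chain was then at 0.10 (edgeR adjusted p = 0.184) and the light chain at 0.14 (edgeR adjusted p = 0.114). Relative to the median of all genes, the heavy chain was 0.26 higher and the light chain 0.29 higher under either scaling, which is so by construction, since a scaling moves all genes alike, and adds nothing to the calls. Neither chain changed direction. At ZT5, ZT9 and ZT13 the same scaling moved the median of all genes to -0.08, -0.12 and -0.09. The ferritin values there fell to between 0.12 and 0.26. All were still called, the heavy chain at ZT13 only narrowly. Over the 4 times together the heavy chain was then at 0.14 and the light chain at 0.20, and both were called. With that scaling the share of called genes that were higher in KO at ZT1 was 22.3%, beside 51.9% with TMM factors. The share of a library's total that fell on genes ran from 18.4% to 26.5% in KO at ZT1 and from 23.6% to 31.7% in WT at ZT1, and its part in the ZT1 values was not tested.

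**Figure D2:**
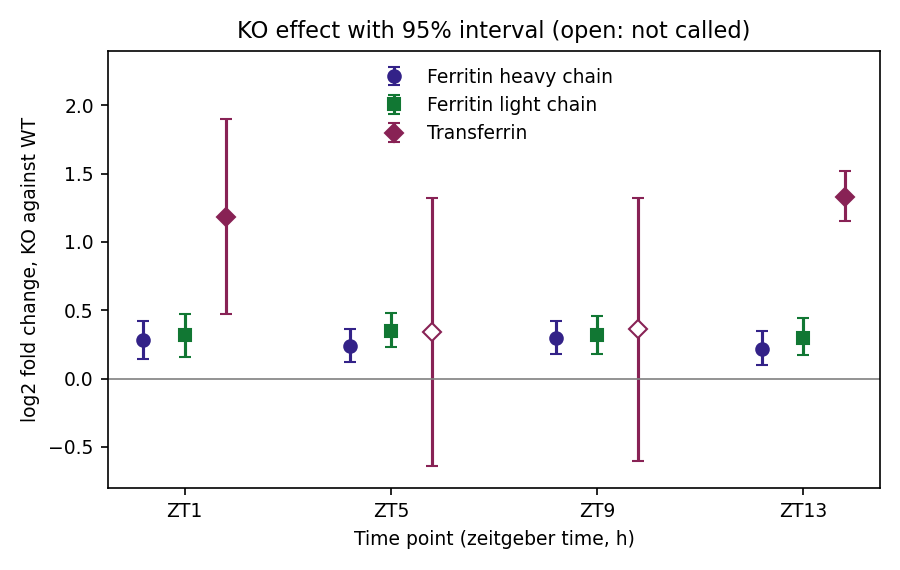
Log2 fold change of KO against WT (vertical axis) at each time point (horizontal axis) for the ferritin heavy chain, the ferritin light chain and transferrin, with 95% intervals; filled symbols passed an adjusted p below 0.05 in edgeR's quasi-likelihood test and open symbols did not. The ferritin values stay between 0.22 and 0.35, and transferrin lies at 1.18 and 1.33 at ZT1 and ZT13 with intervals that cross 0 at ZT5 and ZT9.

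Neither ferritin subunit was called as varying with the time of day. The group means of the heavy chain lay between 699 ± 38.0 (SD, n = 6) at ZT9 and 738 ± 15.3 CPM (SD, n = 6) at ZT13 in WT, and between 849 ± 56.7 (SD, n = 6) and 872 ± 94.3 CPM (SD, n = 5) in KO. The edgeR F-test over the 4 times gave an adjusted p of 0.571 in WT and 0.967 in KO, and that of the light chain 0.792 in WT and 0.897 in KO. In these tests 14.6% of genes were called in WT and 9.26% in KO. The genotype by time interaction gave an adjusted p of 0.918 for the heavy chain and 0.981 for the light chain by edgeR, in a test that called 1.3% of genes. For both chains the order of the group means put the 4 KO groups above the 4 WT groups. The single step between neighbours in that order larger than the SD of either group was the one between genotypes, 111 CPM for the heavy chain and 79.7 CPM for the light chain.

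The counts of the 2 chains can be set against each other within a library, where scaling between libraries drops out. Because gene lengths were not used, this ratio of counts is not a ratio of molecules, but its difference between genotypes is free of length. It ran from 1.68 to 2.09 over the 47 libraries. At ZT5 the ratio was 1.76 ± 0.051 in KO (SD, n = 6) and 1.90 ± 0.0447 in WT (SD, n = 6), and the highest KO library, at 1.82, was below the lowest WT library, at 1.86. The exact two-sided permutation test gave p = 0.00216, the smallest that 6 against 6 allows, and an adjusted p of 0.00866 over the 4 times. The ratio at ZT5 thus differed by -7.36% in KO, with 6 of 6 KO libraries below every WT library. At ZT13 the KO libraries had ratios of 1.81, 1.81, 1.83, 1.83 and 1.93, and WT ran from 1.89 to 2.09. That difference had an exact permutation p of 0.0216 and an adjusted p of 0.0433, and the call was lost, at an adjusted p from 0.0635 to 0.105 (exact permutation), when any 1 of KO replicates 2, 3, 4 and 6 and WT replicates 1, 3 and 4 was left out. At ZT1 (exact permutation p = 0.206) and ZT9 (exact permutation p = 0.623) the difference did not pass the test.

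**Figure D3:**
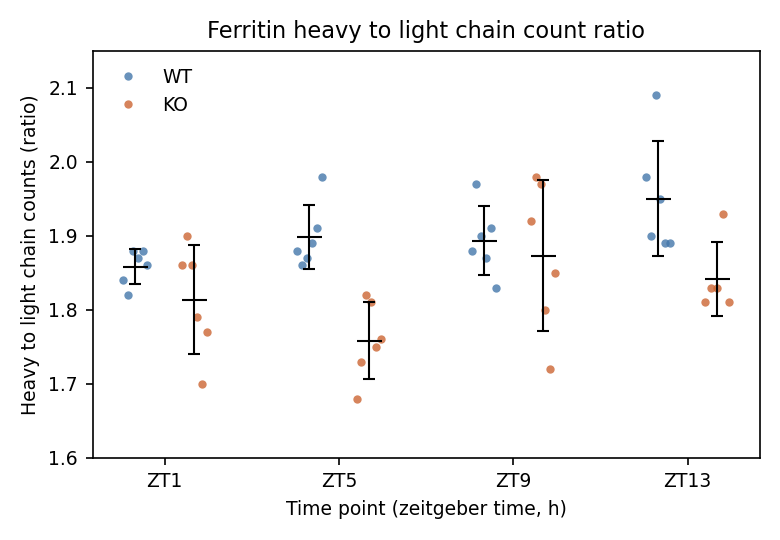
Ratio of heavy chain to light chain counts (vertical axis, starting at 1.6) in each library, by time point (horizontal axis) and genotype; points are libraries, and the black bars are the mean and SD of a group. The KO libraries lie below the WT libraries at ZT5, and the groups overlap at ZT1, ZT9 and ZT13.

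Transferrin showed a different pattern, with a far larger spread over the libraries. Its knockout difference was larger than that of the ferritin chains at ZT1 and ZT13, and was not called at ZT5 or ZT9. Over the 47 libraries the highest level was 9.83 times the lowest, beside 1.49 times for the heavy chain and 1.69 times for the light chain. At ZT13 the 6 WT libraries lay close together, between 94.9 and 124 CPM (median 105), and the KO libraries held 222, 236, 293, 303 and 306 CPM. All KO libraries were above all WT libraries there, as for 10.5% of all genes tested. The log2 fold change at ZT13 was 1.33 (SE 0.09), a 2.52-fold difference with an adjusted p of 2.36e-07 by edgeR's quasi-likelihood test. At that time 0.815% of genes had a larger log2 fold change.

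At ZT1 transferrin ran from 110 to 329 CPM in WT (median 137) and from 256 to 920 CPM in KO (median 344). The log2 fold change was 1.18 (SE 0.33), or 2.27-fold, with an edgeR adjusted p of 0.00993. The groups overlapped, with 3 of 6 KO libraries above the highest WT library. Without KO replicate 5, the library at 920 CPM, the log2 fold change was 0.81 (edgeR adjusted p = 0.0236).

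At ZT5 transferrin ran from 101 to 932 CPM in WT (median 212) and from 218 to 610 CPM in KO (median 380), with a log2 fold change of 0.34 and a 95% interval from -0.64 to 1.32 (edgeR adjusted p = 0.61). This value was set by 1 library, since without WT replicate 4, at 932 CPM, it was 1.00 and passed the test (edgeR adjusted p = 0.0396). At ZT9 WT ran from 103 to 562 CPM (median 162) and KO from 179 to 754 CPM (median 200), with a log2 fold change of 0.36 and a 95% interval from -0.60 to 1.32 (edgeR adjusted p = 0.557). Here too single libraries moved the value. Without KO replicate 5, at 754 CPM, it was -0.18 (edgeR adjusted p = 0.746), and without WT replicate 2, at 562 CPM and the library deposited under both labels, it was 0.87 (edgeR adjusted p = 0.103). The intervals at both times hold the sizes seen at ZT1, so that a difference of that size could have been missed. All 6 KO libraries at each of these times were above the WT median, while 0 of 6 at ZT5 and 1 of 6 at ZT9 were above the highest WT library. How many of all genes had every KO library above the WT median was not counted.

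Over the 4 times together transferrin was higher in KO by a log2 fold change of 0.81 (SE 0.21, edgeR adjusted p = 0.00088), and 23 of 23 KO libraries were above the WT median of 136 CPM. Of these, 0 were above the highest WT library, at 932 CPM. In this comparison 34.5% of all genes were called higher in KO, and the share with every KO library above the WT median was not counted. The log2 fold change lay between 0.68 and 0.97 when each library in turn was left out, and passed the test each time. The interaction, which asks whether the knockout effect differed between times, gave an adjusted p of 0.554 by edgeR, so that a difference between ZT13 and ZT5 or ZT9 was not shown. Over the day within WT the mean level was lowest at ZT13, at 107 ± 9.49 CPM (SD, n = 6), and highest at ZT5, at 329 ± 312 CPM (SD, n = 6), with an edgeR adjusted p of 0.0742. This test passed without WT ZT5 replicate 6 (edgeR adjusted p = 0.032) and without WT ZT9 replicate 2 (edgeR adjusted p = 0.0296). Without WT ZT5 replicate 4, the library at 932 CPM, the adjusted p rose to 0.158 (edgeR). The spread over the 4 times was then 1.07 on the log2 scale, beside 1.63 with all WT libraries. Within KO the adjusted p was 0.326, and 0.0228 without KO ZT9 replicate 5 (edgeR). In the order of the 8 group means, from 431 CPM in KO at ZT1 to 107 CPM in WT at ZT13, no step between neighbours was larger than the larger SD of the pair.

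The libraries that stood high in transferrin could be set beside genes of the immune response. Antimicrobial peptides are short secreted proteins that kill microbes and are induced by infection, and 4 of their genes are named in the sources used here, the cecropin AAEL029047, Cecropin-B type 2 AAEL029041, the attacin AAEL003389 and Defensin-A AAEL003841. Defensin-A was at 0 counts in 20 of 24 WT and 21 of 23 KO libraries and never above 1 count. The summed level of the 4 genes was highest in WT ZT5 replicate 4, at 393 CPM, which was also the library with the most transferrin, at 932 CPM. In WT ZT9 replicate 2, with 562 CPM of transferrin, the sum was 109 CPM. KO ZT1 replicate 5 and KO ZT9 replicate 5, with 920 and 754 CPM of transferrin, had sums of 26.4 and 28.3 CPM.

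Each of these 4 libraries also had the highest sum of antimicrobial peptide genes in its group. The medians of the sum in these groups were 9.02 CPM for KO at ZT1, 2.28 CPM for KO at ZT9, 7.23 CPM for WT at ZT5 and 2.43 CPM for WT at ZT9. The cecropins made up most of the sum in each of these 4 libraries. In KO at ZT1 the attacin was highest in replicate 4, at 4.03 CPM, beside 1.39 CPM in replicate 5. In the other groups named it was highest in the same library as the sum. The attacin was near the floor, with group medians from 0.114 CPM (KO at ZT9) to 0.778 CPM (KO at ZT1). Over the 47 libraries Pearson's r of log2 CPM between transferrin and AAEL029047, AAEL029041 and AAEL003389 was 0.66, 0.55 and 0.36, and after the mean of each group was taken off it was 0.84, 0.83 and 0.57, as a description of libraries that share their depth and scaling. Spearman's rho over the 47 libraries was 0.64, 0.58 and 0.28 in the same order of genes. Some libraries went against this likeness. KO ZT5 replicates 5 and 3 held 610 and 605 CPM of transferrin with sums of 4.78 and 4.99 CPM, and KO ZT13 replicate 2 had a sum of 136 CPM with 303 CPM of transferrin. The difference in transferrin at ZT13 went with low sums in most libraries, between 1.58 and 4.37 CPM in WT and with a median of 2.72 CPM in KO, and it was 1.29 on the log2 scale (edgeR adjusted p = 8.7e-07) without KO replicate 2. At ZT5 the sums ran from 1.77 to 393 CPM in WT and from 1.96 to 5.22 CPM in KO, and at ZT1 from 2.08 to 81.6 CPM in WT and from 0.691 to 26.4 CPM in KO. The part of an immune response in the transferrin levels was not tested. For the ferritin chains, WT ZT5 replicate 4 held 731 CPM of the heavy and 386 CPM of the light chain, both within the range of the other libraries of its group. KO ZT1 replicate 5, in contrast, held the most of both chains in its group, 968 and 570 CPM. Without it the log2 fold change at ZT1 was 0.25 for the heavy chain (edgeR adjusted p = 0.00727) and 0.26 for the light chain (edgeR adjusted p = 0.00559). WT ZT9 replicate 2, the library deposited under both labels, held 746 and 379 CPM of the chains, and without it the log2 fold changes at ZT9 were 0.32 for the heavy chain and 0.33 for the light chain.

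**Figure D4:**
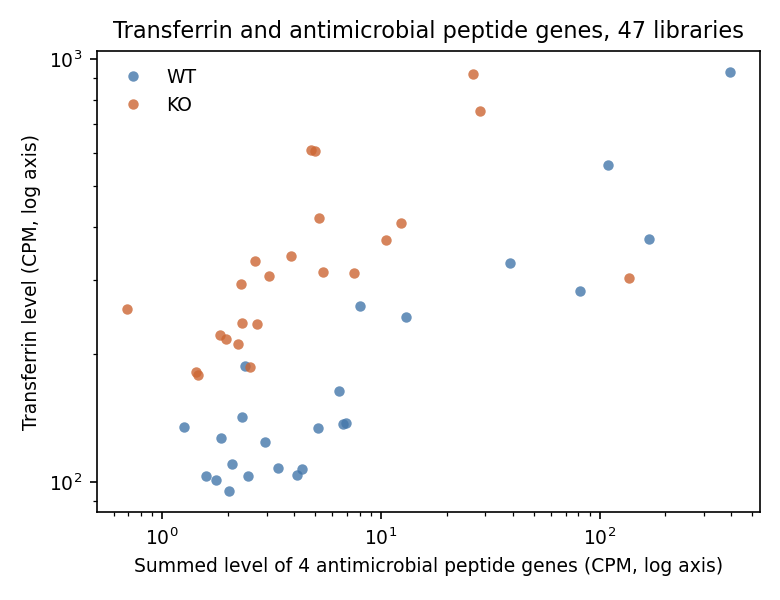
Transferrin level (vertical axis, CPM, log axis) against the summed level of 4 antimicrobial peptide genes (horizontal axis, CPM, log axis) in 47 libraries, coloured by genotype. The WT library at 932 CPM of transferrin has the highest sum, 393 CPM, and KO libraries at about 610 CPM of transferrin have sums near 5 CPM.

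Among the 12343 other genes that passed the filter over the 47 libraries, the pattern most like that of the heavy chain was the light chain, and the reverse held too, with Pearson's r = 0.96 of log2 CPM over the libraries. After the mean of each group was taken off, r was 0.90, so that the 2 chains also moved together among replicates. These correlations share the libraries, their depth and their scaling, and are descriptions. The next most alike for both chains was AAEL000028, annotated with serine-type endopeptidase activity, at r = 0.90 with the heavy chain and 0.91 with the light chain. For the heavy chain AAEL011711, AAEL005221 and AAEL022334 followed, which have no annotation in the sources used here. For the light chain AAEL010819, annotated with the phagosome and with ion transport coupled to ATPase, AAEL011302, annotated with calcium ion and phospholipid binding, and AAEL022334 followed. Each of these 6 genes was called higher in KO at 4 of 4 times, beside 6.76% of all genes, but they were chosen for a likeness that holds the difference between genotypes, so that nothing is read from these calls.

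Transferrin had other nearest genes. Its r was 0.53 with the heavy chain and 0.61 with the light chain over the 47 libraries, and 0.37 and 0.43 within groups. The 5 genes most like it were AAEL020192 (r = 0.92), AAEL010139 (0.91), AAEL022132 (0.91), AAEL005431 (0.90) and AAEL005093 (0.90), of which AAEL022132 is annotated with lipase activity, and AAEL005431 and AAEL005093 with serine-type endopeptidase activity. The same 5 genes had r between 0.86 and 0.92 within groups. All 5 were called higher in KO at ZT13, beside 18.6% of all genes, with log2 fold changes from 0.38 for AAEL005093 to 1.10 for AAEL005431. Their log2 fold changes at ZT5 and ZT9, from -0.49 to 0.42, did not pass the test, nor did those of transferrin. The choice by likeness over all libraries again used these differences, and nothing is read from the calls.

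The study lists 15 genes under iron ion homeostasis or iron-sulfur cluster assembly, of which 3 are the genes above. It chose them as higher in KO at ZT1 on these samples, so that their direction at ZT1 is not independent evidence. The other times compare the same lines, so that the numbers called there are not independent of that choice either. They are given as values only, and no enrichment is read from them. Of the 12 others, the test called 12 higher in KO at ZT1, 3 at ZT5, and 7 each at ZT9 and ZT13, beside 24.5%, 15.5%, 16.3% and 18.6% of all genes. By edgeR 0 were called lower at any time, 0 were lower at an unadjusted p below 0.05, and DESeq2 called 0 lower. Scaled by total counts alone, the numbers called higher by edgeR were 5, 2, 2 and 4 in the order of the times. Their median log2 fold change was 0.32, 0.10, 0.22 and 0.19 in that order, beside 0.02, 0.01, 0 and 0 over all genes tested.

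Called higher at all 4 times were AAEL002948, annotated with heme biosynthesis and with iron-sulfur cluster assembly, AAEL004335, annotated with iron ion binding, and AAEL014154, annotated with binding of a 4Fe-4S cluster. Of all genes, 6.76% were called higher at all 4 times. Because the list was chosen as higher in KO at ZT1, nothing is read from these calls. AAEL002948 ran from 5.26 to 8.28 CPM in WT (median 6.96) and from 8.29 to 13.4 CPM in KO, and its log2 fold change was largest at ZT1, at 0.77, and smallest at ZT13, at 0.34. AAEL004335 ran from 3.99 to 9.58 CPM in WT (median 7.53) and from 7.90 to 13.9 CPM in KO (median 10.4), with log2 fold changes from 0.44 at ZT9 to 0.69 at ZT5. AAEL014154 had smaller changes, from 0.24 at ZT5 to 0.43 at ZT1. The ferritin chains, with 0.22 to 0.35, lay within the range of these listed genes, and transferrin at ZT1 and ZT13 lay above all 12, whose highest values were 0.77 and 0.46.

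**Figure D5:**
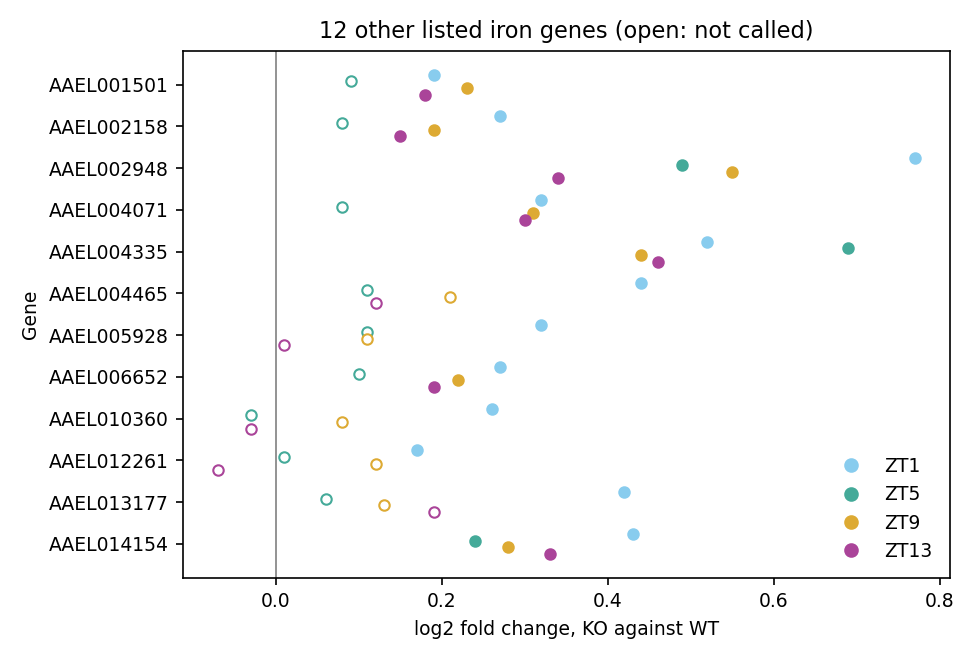
Log2 fold change of KO against WT (horizontal axis) at the 4 time points for the 12 other genes listed under iron ion homeostasis or iron-sulfur cluster assembly (vertical axis); filled points passed an adjusted p below 0.05 in edgeR's quasi-likelihood test and open points did not. All 12 genes are filled at ZT1, for which the study chose them, and 3 are filled at every time. Of all genes, 6.76% were called higher at every time.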

How the data were processed

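Total RNA of whole females was enriched for poly-A RNA and made into Illumina TruSeq libraries. Per the labels and the study's methods, the authors trimmed reads with Trim Galore 0.6.6, aligned them with HISAT2 2.2.1 to the VectorBase genome and counted them per gene with HTSeq 0.11.3, as named in the submitters' processing notes. What was deposited for each library are raw counts of reads on every gene. No source used here gives the strand setting, or says how reads shared by overlapping genes or near-identical copies were handled. Such reads may be missing from the counts. From 68.3% to 81.6% of a library's total stood on 5 summary lines that name no gene, which were left out.

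At each time point a quasi-likelihood model of its libraries alone (edgeR 4.0.16, R 4.3.3) tested KO against WT, after TMM scaling and filterByExpr. P-values were adjusted after Benjamini and Hochberg over all genes tested, and genes were called at an adjusted p below 0.05. The value over the 4 times and the interaction came from a fit of 47 libraries with a mean per group, and time was tested within each genotype. The ratio of heavy to light chain counts was compared by exact two-sided permutation. Likeness was Pearson's r of log2 CPM (prior count 2), and the 5 genes of highest r are named for each gene. The genes named are otherwise the 3 genes in every comparison and the listed iron genes called at all 4 times.

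The 3 genes and the lists were chosen with earlier results of these data known. Of 19804 identifiers, 0 matched the reference table used here, so that names are those of the study and of the working list, the list of iron genes is the study's, and sequences and coordinates are not given. Of 14 marker genes considered, 10 are not named in the sources used here and are not reported, so that the labelled tissue was not checked with them. Of the alternatives, DESeq2 1.42.0 in place of edgeR, DESeq2's size factors, no factor, no filter, a single fit, the replicate number as a block, all 48 libraries and libraries left out were planned. A robust edgeR fit was added after seeing the data. At the lowest count of each gene, counting error alone is 1.04% for the heavy chain, 1.4% for the light chain and 2.48% for transferrin. Of 23 pairs of samples with the same replicate number, 9 had a correlation of their deviations over 0.1, in a range from -0.46 to 0.35. The labels do not say whether a number marks a shared batch, and this check cannot tell.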

Additional observations from a re-analysis of the deposited data

Results flagged for a closer look

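Of 32 groups of values examined, 3 genes and 1 ratio in 8 groups each, 5 held a library far from the rest by Dixon's test, and 4 of the 5 were of transferrin. Chance gives such a library in about 1 of 20 groups if values are normally distributed and groups independent. Here the groups share libraries and CPM was used without a log scale, so that the number is not compared with chance. The highest transferrin level in WT at ZT5 was 932 CPM, with the next at 376 CPM, and in WT at ZT9 it was 562 CPM, with the next at 245 CPM. In KO the highest level at ZT1 was 920 CPM, with the next at 410 CPM, and at ZT9 it was 754 CPM, with the next at 237 CPM. The ratio of heavy to light chain counts in KO at ZT13 was 1.93 in replicate 5, with the next at 1.83.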

How the results depend on the processing

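Of 787 recalculated values for 28 results, 767 kept their direction and their side of the threshold. For the ferritin chains, 257 of 260 values of KO against WT did, at log2 fold changes from 0.10 to 0.38. The exceptions were both chains at ZT1 scaled by total counts on genes (0.10 and 0.14, not called), and the heavy chain at ZT13 with all 48 libraries (0.19, edgeR adjusted p = 0.0584). Leaving out each library, transferrin lay between 0.15 and 1.00 at ZT5, passing only without WT replicate 4, and between -0.18 and 0.87 at ZT9. Its spread over the 4 times lay between 1.07 and 1.82 in WT and between 0.60 and 1.10 in KO on the log2 scale, with calls without WT ZT5 replicate 6 (1.82), without WT ZT9 replicate 2 (1.63) and without KO ZT9 replicate 5 (1.10). DESeq2's likelihood ratio test also called it in WT (1.62, adjusted p = 0.0483). The log2 difference in the ratio of heavy to light chain lay between -0.10 and -0.06 at ZT13 and between -0.03 and 0.01 at ZT9, where it was above 0 without KO replicate 5, and was -0.07 at ZT13 with all 48 libraries (exact permutation, adjusted p = 0.126).

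With the replicate number as a block, the difference in that ratio was -0.11 at ZT5 (adjusted p = 0.125) and -0.08 at ZT13 (adjusted p = 0.25) by exact sign flips of pairs, whose smallest unadjusted p is 0.0312 with 6 pairs and 0.0625 with 5, so that after adjustment over 4 times these losses say little. No other call of the 3 genes or the ratio changed. Of 23 pairs, 2 correlated best with their own number, which cannot tell whether the numbers mark a shared batch.

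The number of genes called at ZT13 was 4095, and 2129 with all 48 libraries. That of time within KO was 1110, 1962 with DESeq2, and 604 to 1901 with 1 library left out. That of the interaction was 161, and 357 with DESeq2. Of the 12 listed iron genes, 7 were called at ZT9 and 4 to 8 with 1 library left out, 7 at ZT13 and 2 with all 48 libraries, and 11 over the 4 times and 6 by total counts. The causes of these changes were not tested.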
